A study of Mus musculus with 8 samples.

Results

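The N-glycan branching glycosyltransferases are 9 Golgi enzymes that build and cap the complex sugar trees carried on asparagine residues of secreted and surface proteins. The genes described here were listed by their enzymatic role: Mgat1, Mgat2, Mgat3, Mgat4a, Mgat4b and Mgat5, which attach N-acetylglucosamine (GlcNAc) to the mannose core, Fut8, which attaches the core fucose, B4galt1, which adds galactose, and St6gal1, which adds sialic acid. They were matched by Entrez Gene number among 24454 genes, and all 9 were found and passed the filter on low values. The list was drawn up when the low level of Mgat3 in the MEK5 knockdown was already known, so the values of Mgat3 are given as a description, without a test. The other 8 members were listed for their role alongside it, likewise with earlier results of these data known.

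The cells were 4T1, an established line from a mouse mammary tumour that spreads to other organs when grafted. All of them had been infected with a lentivirus carrying a short hairpin RNA and selected with 4 µg/ml puromycin, so the controls carried a vector and the selection as well. The hairpin was a non-targeting one in 3 libraries (shCTRL), hairpin 2 against murine MEK5 in 2 libraries (shMEK5) and hairpin 1 against murine ERK5 in 3 libraries (shERK5). With 1 hairpin for each target, an effect of the target's loss and an effect particular to that hairpin cannot be told apart. Whether the libraries of a group stem from separate cultures is not stated, and p-values therefore reflect the spread among these libraries alone, part of which may be technical. Both knockdowns were set against the same 3 shCTRL libraries.

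MEK5 is the kinase that activates ERK5, and the series' title ties this pair to the epithelial-mesenchymal transition and metastasis. Libraries held between 41397315 and 53714288 reads assigned to genes, and values are CPM, reads of a gene per 1000000 such reads. Map2k5, the gene of MEK5, stood in shMEK5 at 39.2% of its shCTRL mean, and Mapk7, the gene of ERK5, stood in shERK5 at 24.4% and in shMEK5 at 73.0%. All 8 mammary epithelial markers examined passed the filter, and their summed level lay at 1773 to 1960 CPM in shCTRL, 1348 to 1409 CPM in shMEK5 and 1603 to 1648 CPM in shERK5. In shMEK5 3 of them rose and 2 fell, with a median log2 difference of 0.03, next to 23.1% and 25.6% of all tested genes. In shERK5 5 rose, among them Cdh1, and 2 fell, with a median of 0.81, next to 32.0% and 31.3% of all tested genes. The 2 that fell were the same in both knockdowns, Krt8 (-0.53 in shMEK5 and -0.52 in shERK5) and Krt18 (-0.60 and -0.52). They were also the most abundant of the 8, at 549 and 1111 CPM in shCTRL. The part of these 8 markers in the results below was not tested. Of the haematopoietic, endothelial and adipocyte markers 0 of 17 passed the filter, and each of these lists by itself summed to at most 0.362 CPM in any library. Of 7 fibroblast and pericyte markers 1 passed it, Pdgfra (36.8 ± 8.28, 34.6 ± 1.33 and 25.8 ± 2.89 CPM, SD, in shCTRL, shMEK5 and shERK5), while Dcn, Lum and Rgs5 were at 0.

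An N-glycan is transferred to a protein as a pre-formed mannose-rich tree and trimmed on its way through the endoplasmic reticulum and Golgi. MGAT1 then adds the GlcNAc that opens the complex and hybrid pathway, MGAT2 begins the opposite arm, and the MGAT4 enzymes and MGAT5 add further branches. MGAT3 adds the bisecting GlcNAc, a residue on the central mannose that hinders the later branching enzymes. In mammary and other carcinoma cells, MGAT5-made branches are known for their link to motility and galectin binding, and the bisecting residue for its presence on E-cadherin and integrins.

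Mgat3, the bisecting enzyme (Entrez Gene 17309; chromosome 15, 80173651 to 80215519, GRCm38, plus strand), was low in every knockdown library. It lay at 11.8, 10.9 and 11.8 CPM in shCTRL replicates 1, 2 and 3. In shMEK5 it lay at 2.46 and 1.62 CPM and in shERK5 at 1.56, 2.14 and 1.78 CPM. The lowest control library was thus far above the highest knockdown library, while the libraries of the 2 knockdowns lay among each other. The group means were 11.5 ± 0.536 CPM (SD, n = 3) in shCTRL, 2.04 ± 0.597 CPM over the 2 shMEK5 libraries and 1.83 ± 0.292 CPM over the 3 shERK5 libraries. The knockdown means were 17.7% and 15.9% of the control mean. These values rest on 466 to 616 reads per shCTRL library and on 77 to 114 reads per knockdown library. Adding 1 before taking log2 shrinks the change of low genes. On that log2(CPM + 1) scale the differences from shCTRL were -2.05 in shMEK5 and -2.15 in shERK5, and shERK5 differed from shMEK5 by -0.10. With a pseudocount of 0.1 in place of 1 the differences from shCTRL were -2.47 and -2.60.

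**Figure D1:**
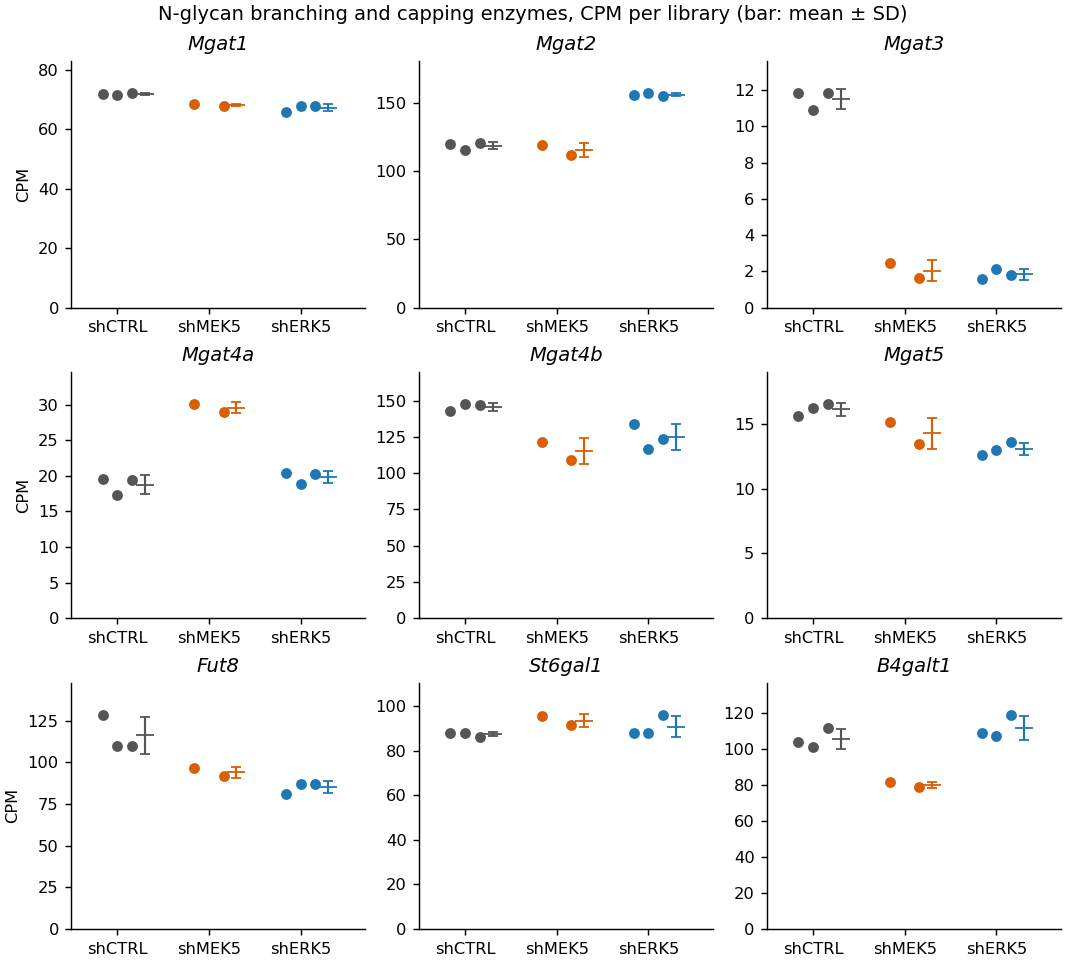
CPM of each of the 9 enzymes (vertical axis, from 0, a scale of its own per gene) in the 3 shCTRL, 2 shMEK5 and 3 shERK5 libraries, with the mean ± SD of each group beside its points. Mgat3 lies between 10.9 and 11.8 CPM in shCTRL and between 1.56 and 2.46 CPM in the knockdowns, Mgat4a is high in shMEK5, Mgat2 is high in shERK5 and B4galt1 is low in shMEK5.

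Apart from Mgat3, the members were compared with limma, a linear model fitted to all 11623 genes that passed the filter, and called at a Benjamini-Hochberg adjusted p under 0.05. Of the other 8 members, 4 were called in shMEK5 against shCTRL, 1 higher and 3 lower, where 48.7% of all tested genes were called. In shERK5 against shCTRL 4 were again called, 1 higher and 3 lower, where 63.3% of all tested genes were called. Between the knockdowns 3 were called, 2 higher and 1 lower in shERK5, against 39.4% of all tested genes. The libraries of the groups did not overlap for 7 of the 8 members in shMEK5 against shCTRL, for 5 in shERK5 against shCTRL and for 4 between the knockdowns, next to 68.7%, 67.9% and 61.0% of all tested genes. Nothing is read from these shares about the family as a whole. Their median log2 difference was -0.12 in shMEK5 and -0.02 in shERK5, against -0.02 and 0.00 over all tested genes.

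Mgat1, the enzyme that opens the complex pathway (Entrez Gene 17308; chromosome 11, 49244191 to 49263027, plus strand), hardly varied. It lay at 71.6, 71.5 and 72.0 CPM in shCTRL, at 68.3 and 67.9 CPM in shMEK5 and at 65.9, 67.9 and 67.7 CPM in shERK5. All 5 knockdown libraries were below all controls, by a small margin. The log2 difference was -0.07 in shMEK5 (SE 0.05, limma adjusted p = 0.213) and -0.09 in shERK5 (SE 0.04, adjusted p = 0.0713), and neither passed the test. With RLE and TMM size factors the latter difference passed it (-0.10, adjusted p = 0.0468, and -0.11, adjusted p = 0.034).

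Mgat2, which starts the antenna on the other arm (Entrez Gene 217664; chromosome 12, 69184158 to 69186773, plus strand), rose in shERK5. Its libraries lay at 119.8, 116 and 120.4 CPM in shCTRL, at 119 and 112 CPM in shMEK5 and at 156, 157 and 155 CPM in shERK5. Every shERK5 library was above every other library, whereas shCTRL and shMEK5 overlapped. The mean in shERK5 was 131% of that in shCTRL, a log2 difference of 0.39 (SE 0.04, limma adjusted p = 2.94e-05). In shMEK5 the log2 difference was -0.04 (SE 0.05, adjusted p = 0.543; 95% interval -0.15 to 0.07). The difference between the knockdowns was 0.43 (SE 0.05, adjusted p = 8.47e-05). Mgat2 lies within Gm49383, an annotated coding gene on the opposite strand. The strand setting of the counting is not known here, so reads where their exons overlap cannot be told apart.

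The paralogs Mgat4a and Mgat4b encode enzymes of the same reaction, which adds a branch to the arm opened by MGAT1, and they moved in opposite directions in shMEK5. Mgat4a (Entrez Gene 269181; chromosome 1, 37439340 to 37541060, minus strand) lay at 19.6, 17.2 and 19.4 CPM in shCTRL, at 30.1 and 29.0 CPM in shMEK5 and at 20.4, 18.9 and 20.3 CPM in shERK5. Both shMEK5 libraries were above all others, and shERK5 overlapped shCTRL. The shMEK5 mean was 158% of the control, a log2 difference of 0.63 (SE 0.07, limma adjusted p = 7.99e-05). In shERK5 the log2 difference was 0.08 (SE 0.07, adjusted p = 0.313; 95% interval -0.07 to 0.23), and shERK5 was below shMEK5 by -0.55 (SE 0.07, adjusted p = 0.000257).

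Mgat4b (Entrez Gene 103534; chromosome 11, 50225335 to 50235103, plus strand) fell in both knockdowns. It lay at 143, 148 and 147 CPM in shCTRL, at 122 and 109 CPM in shMEK5 and at 134, 117 and 124 CPM in shERK5. All knockdown libraries were below all controls and the knockdowns overlapped each other. The log2 differences were -0.34 in shMEK5 (SE 0.07, limma adjusted p = 0.00225) and -0.22 in shERK5 (SE 0.06, adjusted p = 0.00824), and the knockdowns differed by 0.11 (SE 0.07, adjusted p = 0.211; 95% interval -0.04 to 0.26). Taken over the 8 libraries together, the read counts of each member, Mgat4a and Mgat4b included, were identical to those of no other gene.

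Mgat5, which adds the branch that carries long lactosamine chains (Entrez Gene 107895; chromosome 1, 127204919 to 127488334, plus strand), fell in shERK5. Its level was 15.6, 16.2 and 16.6 CPM in shCTRL, 15.1 and 13.4 CPM in shMEK5 and 12.6, 13.0 and 13.6 CPM in shERK5. The controls were above all knockdown libraries, with shMEK5 replicate 1 close below them. The log2 difference was -0.28 in shERK5 (SE 0.07, limma adjusted p = 0.00387) and -0.17 in shMEK5 (SE 0.08, adjusted p = 0.0905), which did not pass the test. The difference between the knockdowns was -0.12 (SE 0.08, adjusted p = 0.24; 95% interval -0.28 to 0.05). The end of Mgat5 overlaps the opposite-strand gene Tmem163, which averaged 0.00292 CPM.

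Fut8, the only enzyme known to add the core fucose (Entrez Gene 53618; chromosome 12, 77237430 to 77475998, plus strand), fell in both knockdowns. It lay at 129, 109.8 and 109.9 CPM in shCTRL, at 96.3 and 91.5 CPM in shMEK5 and at 80.8, 86.9 and 87.2 CPM in shERK5. No group overlapped another, and the control group was the widest, with replicate 1 above its other 2 libraries. The means in shMEK5 and shERK5 were 80.9% and 73.2% of the control. The log2 differences were -0.30 in shMEK5 (SE 0.07, limma adjusted p = 0.00712) and -0.44 in shERK5 (SE 0.07, adjusted p = 0.000212), and the call in shMEK5 was lost without shMEK5 replicate 2 (-0.26, adjusted p = 0.0626). The knockdowns differed by -0.14 (SE 0.07, adjusted p = 0.15; 95% interval -0.31 to 0.02).

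B4galt1, the main galactosyltransferase of N-glycan antennae (Entrez Gene 14595; chromosome 4, 40804602 to 40853984, minus strand), fell in shMEK5. It lay at 104, 101 and 112 CPM in shCTRL, at 81.6 and 79.2 CPM in shMEK5 and at 109, 107 and 119 CPM in shERK5. Both shMEK5 libraries were below all others, and shERK5 overlapped shCTRL. The log2 difference was -0.39 in shMEK5 (SE 0.06, limma adjusted p = 0.000573), 75.9% of the control on the CPM scale. In shERK5 it was 0.08 (SE 0.06, adjusted p = 0.238; 95% interval -0.05 to 0.20), and shERK5 was above shMEK5 by 0.47 (SE 0.06, adjusted p = 0.000236).

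St6gal1, which caps galactose with sialic acid (Entrez Gene 20440; chromosome 16, 23224729 to 23360350, plus strand), passed the test in no comparison. It lay at 87.8, 87.9 and 86.3 CPM in shCTRL, at 95.6 and 91.3 CPM in shMEK5 and at 87.7, 88.1 and 96.1 CPM in shERK5. The shMEK5 libraries were above the controls, and shERK5 spread over both. The log2 difference was 0.10 in shMEK5 (SE 0.06, limma adjusted p = 0.171; 95% interval -0.03 to 0.22) and 0.05 in shERK5 (SE 0.05, adjusted p = 0.373; 95% interval -0.06 to 0.16). Between the knockdowns it was -0.04 (SE 0.06, adjusted p = 0.56).

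**Figure D2:**
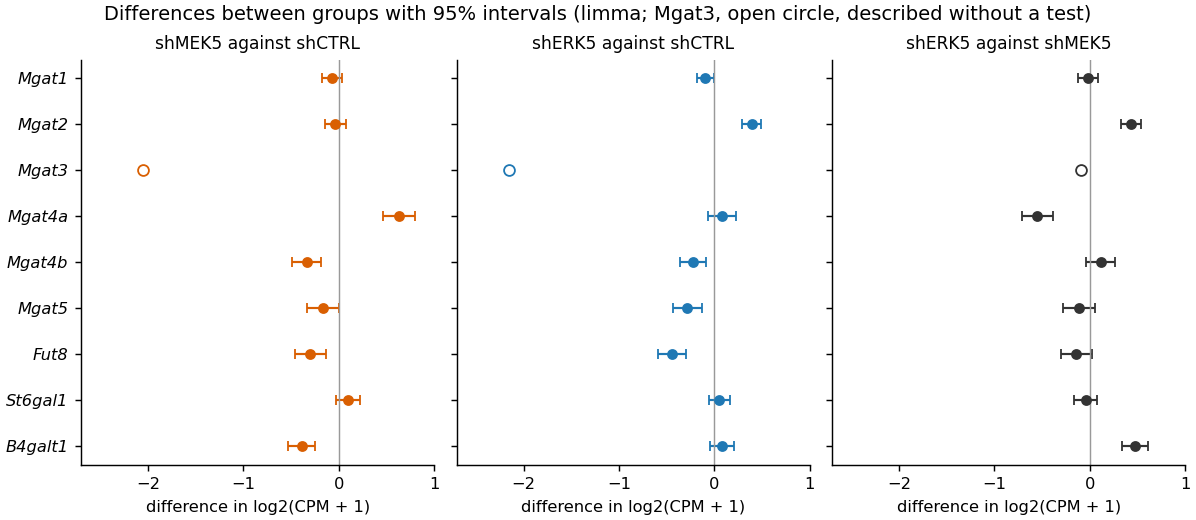
Difference in log2(CPM + 1) of each enzyme (horizontal axis) in the 3 comparisons, with the unadjusted 95% interval of the limma fit. Mgat3, drawn open and without an interval because its level was known when the list was made, lies near -2 against shCTRL in both knockdowns, and Mgat2, Mgat4a and B4galt1 are the members called between the knockdowns.

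Mgat2, Mgat4a and B4galt1 were thus the 3 members whose level differed between the knockdowns by the test. Their upstream sequences are shown because these are the stretches where the 3 genes can be compared letter by letter. The sequences come from RefSeq's promoter table for GRCm38.p6, which matched 7 of the 9 members and has no entry for Mgat3 and Mgat4b. Each is given 5′ to 3′ on the gene's own strand, limited to bases upstream of the annotated start that lie in no GENCODE exon and no RefSeq gene. The Mgat2 stretch does lie within the GENCODE span of Gm49383 on the opposite strand, outside its exons. They cover chr12:69184084-69184156 (plus strand), chr1:37541061-37541266 (minus strand) and chr4:40854006-40854234 (minus strand). Capitals mark matches to the motifs searched.
Mgat2: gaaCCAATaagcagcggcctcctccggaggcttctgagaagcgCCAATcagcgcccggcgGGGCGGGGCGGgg
Mgat4a: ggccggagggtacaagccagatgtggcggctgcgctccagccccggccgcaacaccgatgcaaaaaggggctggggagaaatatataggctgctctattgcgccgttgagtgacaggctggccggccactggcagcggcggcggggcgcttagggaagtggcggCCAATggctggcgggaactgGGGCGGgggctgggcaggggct
B4galt1: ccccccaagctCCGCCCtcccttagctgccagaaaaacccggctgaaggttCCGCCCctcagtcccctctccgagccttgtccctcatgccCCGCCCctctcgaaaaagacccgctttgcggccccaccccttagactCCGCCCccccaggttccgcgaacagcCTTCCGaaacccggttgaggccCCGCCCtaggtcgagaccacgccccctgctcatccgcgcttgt

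All 3 stretches were rich in G and C, at 71.2%, 68.4% and 67.2%. Motifs were searched on both strands: the GC box GGGCGG, the CCAAT box CCAAT, the TATA box TATAAA, an ETS core CGGAAG, the AP-1 site TGANTCA, the cyclic AMP element TGACGTCA and a MEF2-like core. The B4galt1 stretch held 5 GC boxes and 1 ETS core and no CCAAT box, the Mgat4a stretch 1 GC box and 1 CCAAT box, and the Mgat2 stretch 2 of each, with no overlap between different motifs. Windows of the same length and place hold a GC box in 29.7% of all 32851 promoters for B4galt1, in 25.8% for Mgat4a and in 21.1% for Mgat2. The CCAAT box is found in 32.0%, 29.3% and 13.9% of them, and the ETS core in 11.6% of windows like that of B4galt1. The other motifs had no match in these windows, which says only that those letters are not there. The Mgat2 stretch is short because the ribosomal protein gene Rpl36al lies 91 bases away on the other side. Rpl36al rose in both knockdowns, by 0.34 in shMEK5 (SE 0.10, limma adjusted p = 0.0189) and 0.41 in shERK5 (SE 0.09, adjusted p = 0.00292).

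Levels of different enzymes can be set side by side only per length, here CPM per kilobase of annotated exon (GENCODE). Mgat4b and Mgat2 were the most abundant members on this scale in all 3 groups and Mgat3, Mgat4a and Mgat5 the least. In shCTRL the order ran Mgat4b (53.6 ± 1.02 CPM per kb, SD, n = 3), Mgat2 (45.4 ± 0.982), B4galt1 (25.0 ± 1.31), St6gal1 (17.8 ± 0.178), Mgat1 (15.2 ± 0.0592), Fut8 (14.7 ± 1.37), Mgat3 (2.47 ± 0.115), Mgat5 (1.57 ± 0.0457) and Mgat4a (1.46 ± 0.102). Libraries of neighbours in this order overlapped for Mgat1 and Fut8 and for Mgat5 and Mgat4a, and did not for the rest. Mgat4b ranked first in shCTRL, while in both knockdowns Mgat2 ranked first. In shMEK5 the first 2, Mgat2 and Mgat4b, overlapped, as did St6gal1 and B4galt1. In shERK5 no neighbours overlapped. Mgat3 went from rank 7 in shCTRL to rank 9 in both knockdowns, at 0.438 ± 0.128 CPM per kb (SD, n = 2) in shMEK5 and 0.392 ± 0.0626 CPM per kb (SD, n = 3) in shERK5. The exon lengths are unions over transcripts, such as 12881 bases for Mgat4a and 2719 bases for Mgat4b, so levels of genes with long alternative ends are understated.

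**Figure D3:**
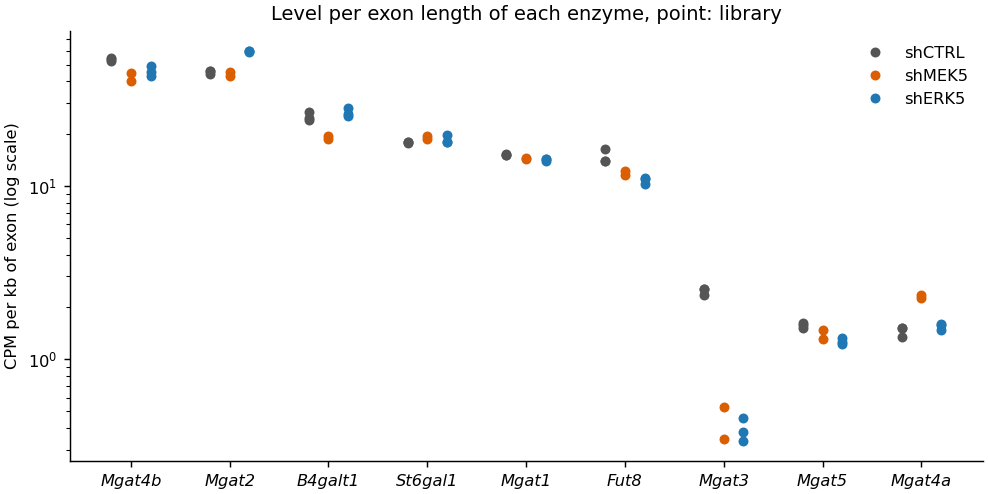
CPM per kilobase of annotated exon (vertical axis, log scale) of the 9 enzymes in each of the 8 libraries, in the order of the shCTRL means. Mgat4b and Mgat2 are the highest in all libraries, and the Mgat3 mean is 2.47 in shCTRL, 0.438 in shMEK5 and 0.392 in shERK5.

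Ratios between enzymes of a library show the balance of their transcripts without regard to total depth. The ratio of Mgat3 to Mgat5, the bisecting to the branching enzyme, was 1.67, 1.48 and 1.58 per length in the shCTRL libraries. It was 0.359 and 0.266 in shMEK5 and 0.273, 0.364 and 0.288 in shERK5, so that Mgat3 exceeded Mgat5 per length in all controls and was below it in all knockdown libraries. The place of the value 1 depends on the exon lengths of 4665 and 10291 bases. Without division by length, the log2 ratio of CPM was below 0 in the controls too, at -0.40, -0.57 and -0.49, with means of -2.84 in shMEK5 and -2.85 in shERK5. The ratio of Mgat4a to Mgat4b was 0.0272 ± 0.00228 (SD, n = 3) in shCTRL, 0.0542 ± 0.00281 (SD, n = 2) in shMEK5 and 0.0336 ± 0.00134 (SD, n = 3) in shERK5, with no overlap of the groups. Mgat4b remained the predominant transcript of the pair in all groups. The ratio of Mgat2 to Mgat1 was 3.00 ± 0.0562 (SD, n = 3) in shCTRL, 3.07 ± 0.123 (SD, n = 2) in shMEK5 and 4.20 ± 0.0757 (SD, n = 3) in shERK5. These ratios were formed from values already described and were not tested.

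**Figure D4:**
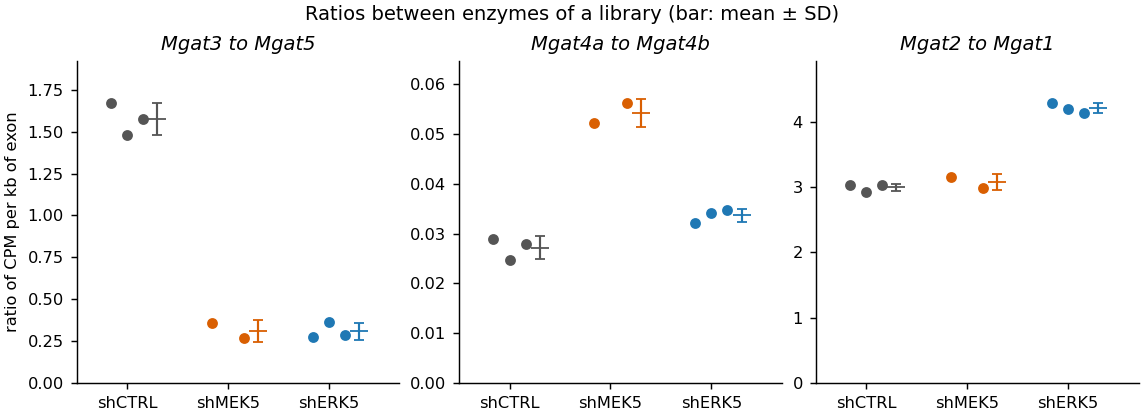
Ratio of CPM per kilobase of exon between 2 enzymes of the same library (vertical axis, from 0) in the shCTRL, shMEK5 and shERK5 libraries, with the group mean ± SD. The Mgat3 to Mgat5 ratio lies between 1.48 and 1.67 in shCTRL and at or below 0.364 in the knockdowns, Mgat4a to Mgat4b is highest in shMEK5, and Mgat2 to Mgat1 is highest in shERK5.

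Across the 8 libraries, log2(CPM + 1) of Mgat3 went with that of Mgat1 (Pearson r = 0.97), Fut8 (0.92), Mgat5 (0.89) and Mgat4b (0.84), whereas Mgat4a went against B4galt1 (-0.85). These are descriptions over 8 points that fall into 3 groups and share libraries and scaling. By the same measure, the 5 genes most like Mgat3 among 10058 with a mean of at least 5 CPM were Ubn1, Rab9, Sned1, Eef1a1 and Drosha, with r between 0.993 and 0.994. In all, 332 genes had an r above 0.95. Of the 5, Sned1 had nearly the same size of difference, from 11.2 ± 1.24 CPM in shCTRL (SD, n = 3) to 2.40 ± 0.266 CPM in the 2 shMEK5 libraries and 2.29 ± 0.202 CPM in the 3 shERK5 libraries. Ubn1, Rab9, Eef1a1 and Drosha kept between 54.8% and 79.5% of their control level, and Eef1a1, a translation factor gene with processed copies, is uncertain in its reads.

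The genes beside Mgat3 on chromosome 15 did not share its low level. Tab1, which encodes a kinase-binding adaptor and lies 11944 bases before Mgat3, rose in both knockdowns, from 81.7 ± 3.92 CPM in shCTRL (SD, n = 3) to 120.2 ± 6.72 CPM in the 2 shMEK5 libraries and 119.6 ± 2.99 CPM in the 3 shERK5 libraries. Mief1, a mitochondrial fission gene 18445 bases beyond Mgat3, had log2 differences of -0.10 (SE 0.06, limma adjusted p = 0.173) and -0.01 (SE 0.05, adjusted p = 0.935). Beside Mgat4a, Unc50 lies 353 bases away and fell in shMEK5, where Mgat4a rose (-0.17, SE 0.05, limma adjusted p = 0.0232). Lipt1, 330678 bases away on the other side of Mgat4a, rose in shMEK5 (0.40, SE 0.08, adjusted p = 0.00161) and in shERK5 (0.35, SE 0.07, adjusted p = 0.00111). Beside Mgat4b, the autophagy receptor gene Sqstm1 fell in both knockdowns, as Mgat4b did (-0.59 in shMEK5, SE 0.04, and -0.28 in shERK5, SE 0.04). Maml1, on the other side of Mgat4b, had a difference of -0.01 in shMEK5 (SE 0.09, adjusted p = 0.947) and fell in shERK5 (-0.21, SE 0.08, adjusted p = 0.0454). Smu1 and Bag1, beside B4galt1, were higher in shERK5 than in shMEK5, as B4galt1 was (0.25, adjusted p = 0.00309, and 0.17, adjusted p = 0.0225). Against shCTRL neither passed the test in shMEK5 (-0.07 each, adjusted p = 0.281 and 0.254). Dnaaf2, 2314 bases beyond Mgat2, rose in shMEK5 (0.29, adjusted p = 0.00104) and in shERK5 (0.18, adjusted p = 0.00588).

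Other genes of glycan synthesis, trimming and reading were described with 11 lists of 136 genes, of which 109 passed the filter. The lists also hold enzymes of O-glycans and O-fucose, sialidases, proteases and galectins. Their pooled counts are therefore not those of N-glycan synthesis alone. In shMEK5 28 rose and 27 fell, next to 23.1% and 25.6% of all tested genes. In shERK5 56 rose and 18 fell, next to 32.0% and 31.3%, with a median log2 difference of 0.18 against 0.00 over all tested genes. Between the knockdowns 42 were higher and 11 lower in shERK5, next to 22.0% and 17.4%, with a median of 0.16 against 0.02. The counts of each single list below stand next to these same shares of all tested genes. Nothing is read from a count near them. The lists were chosen by role, with earlier results of these data known, and no set test was made.

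Oligosaccharyltransferase, the complex that moves the finished glycan onto the protein, had 9 of its 12 genes higher and 1 lower in shERK5, with a median of 0.37. Its ribophorin genes Rpn1 and Rpn2 rose by 0.61 (SE 0.05, limma adjusted p = 2.59e-06) and 0.47 (SE 0.05), and the accessory subunit gene Ostc by 0.60 (SE 0.04). In shMEK5 3 of the 12 rose and 3 fell. Between the knockdowns 9 were higher in shERK5 and 0 lower, a count that was 5 without shMEK5 replicate 1. At Rpn1 and Rpn2 the knockdowns differed by 0.51 (SE 0.05) and 0.36 (SE 0.06).

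Glycan trimming and quality control in the endoplasmic reticulum had 9 of 16 tested genes higher and 1 lower in shERK5, with a median of 0.19. The chaperone gene Calr rose there by 0.58 (SE 0.05), and the cargo lectin genes Lman1 and Lman2 by 0.39 (SE 0.04) and 0.54 (SE 0.04). In shMEK5 1 rose, Lman2 (0.18, SE 0.05), and 5 fell. The rise of Lman2 in shMEK5 was lost without shMEK5 replicate 1 (0.18, adjusted p = 0.0555) or 2 (0.17, adjusted p = 0.0747). The count of 6 in shMEK5 was 2 without shMEK5 replicate 1 and 3 without replicate 2. Between the knockdowns 10 were higher in shERK5 and 0 lower, a count that was 6 without shMEK5 replicate 1.

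Assembly of the lipid-linked precursor had 11 of 22 genes higher and 1 lower in shERK5 and 7 higher and 2 lower in shMEK5, with medians of 0.27 and 0.15. The mannosyltransferase gene Alg12 rose by 0.91 in shERK5 (SE 0.07) and 0.64 in shMEK5 (SE 0.08), the glucosyltransferase gene Alg8 by 0.63 (SE 0.06) and 0.49 (SE 0.07), and Alg14 by 0.68 (SE 0.07) and 0.40 (SE 0.08). The supply of nucleotide sugars, the donors of every step, had 12 of 21 genes higher and 4 lower in shERK5 (median 0.18) and 6 higher and 4 lower in shMEK5 (median 0.12). The count of 16 in shERK5 was 10 without shCTRL replicate 3. Gnpnat1, an enzyme of UDP-GlcNAc synthesis, rose by 0.64 in shERK5 (SE 0.06) and 0.41 in shMEK5 (SE 0.07), and Cmas, which activates sialic acid, by 0.43 (SE 0.04) and 0.27 (SE 0.05). Uap1l1, a relative of the last enzyme of UDP-GlcNAc synthesis, fell by 1.37 in shMEK5 (SE 0.09) and 0.45 in shERK5 (SE 0.08) on the log2 scale.

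The Golgi mannosidases, which trim the tree before and between the steps of MGAT1 and MGAT2, moved in both directions in shERK5. In shMEK5 0 of 5 rose and 3 fell, and the count was 1 without shCTRL replicate 1 or shMEK5 replicate 2, and 5 without shERK5 replicate 1 or with the replicate number as a block. In shERK5 1 rose and 2 fell. Man1c1 fell by 0.91 in shMEK5 (SE 0.13) and 0.64 in shERK5 (SE 0.11), and Man1a2 fell by 0.70 in shERK5 (SE 0.07). Man1a rose in shERK5 (0.23, SE 0.06, limma adjusted p = 0.00835). Its difference of -0.21 in shMEK5 (SE 0.07, adjusted p = 0.027) missed the threshold when any 1 of shCTRL replicates 1 and 2 (adjusted p = 0.0673 each) or shMEK5 replicates 1 and 2 (adjusted p = 0.0683 and 0.146) was left out.

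Relatives of the members among the galactosyl-, sialyl-, fucosyl- and GlcNAc transferases, not all of which act on N-glycans, moved in both directions. Among other galactosyltransferases B4galt5 fell in shMEK5 (-0.54, SE 0.05) and shERK5 (-0.57, SE 0.05), while B4galt2 rose in shMEK5 (0.29, SE 0.07), fell in shERK5 (-0.44, SE 0.07) and differed between them by -0.73 (SE 0.07, limma adjusted p = 3.55e-05). Of the 5 tested, shMEK5 had 2 higher and 1 lower and shERK5 had 2 higher and 2 lower. Of 9 tested sialyltransferases and sialidases shMEK5 had 2 higher and 2 lower, a count of 4 that was 2 without shMEK5 replicate 1, and 3 rose and 1 fell in shERK5. These counts pool enzymes that add sialic acid with enzymes that remove it. The sialidase gene Neu1 fell in shMEK5 (-0.34, SE 0.06) and, like Neu2, is among the 3 that rose in shERK5 (0.23, SE 0.06). St3gal4 fell in shMEK5 (-0.42, SE 0.05) and shERK5 (-0.62, SE 0.05), and St3gal1 rose in shERK5 (0.68, SE 0.05). The cytosolic sialidase gene Neu2 was low and reached 2.97 ± 0.234 CPM in shERK5 from 1.03 ± 0.172 CPM in shCTRL (SD, n = 3 each). Of 4 tested fucosyltransferases 1 rose and 2 fell in either knockdown: Fut11 fell by 0.87 in shMEK5 (SE 0.10) and 1.14 in shERK5 (SE 0.09), and Pofut2, which acts on protein O-fucose, rose by 0.34 (SE 0.07) and 0.49 (SE 0.06). Among other GlcNAc transferases shMEK5 had 2 of 5 higher and 2 lower, a count of 4 that was 2 without shMEK5 replicate 2, and 2 rose and 1 fell in shERK5. B3gnt2, which extends lactosamine chains, fell in shMEK5 (-0.36, SE 0.06) and shERK5 (-0.30, SE 0.05), and Gcnt1, the core branching enzyme of O-glycans, rose in shMEK5 (0.48, SE 0.09). Mgat4c, Mgat4d and Mgat5b, the remaining relatives of the branching enzymes, never passed 0.09 CPM and were not tested.

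**Figure D5:**
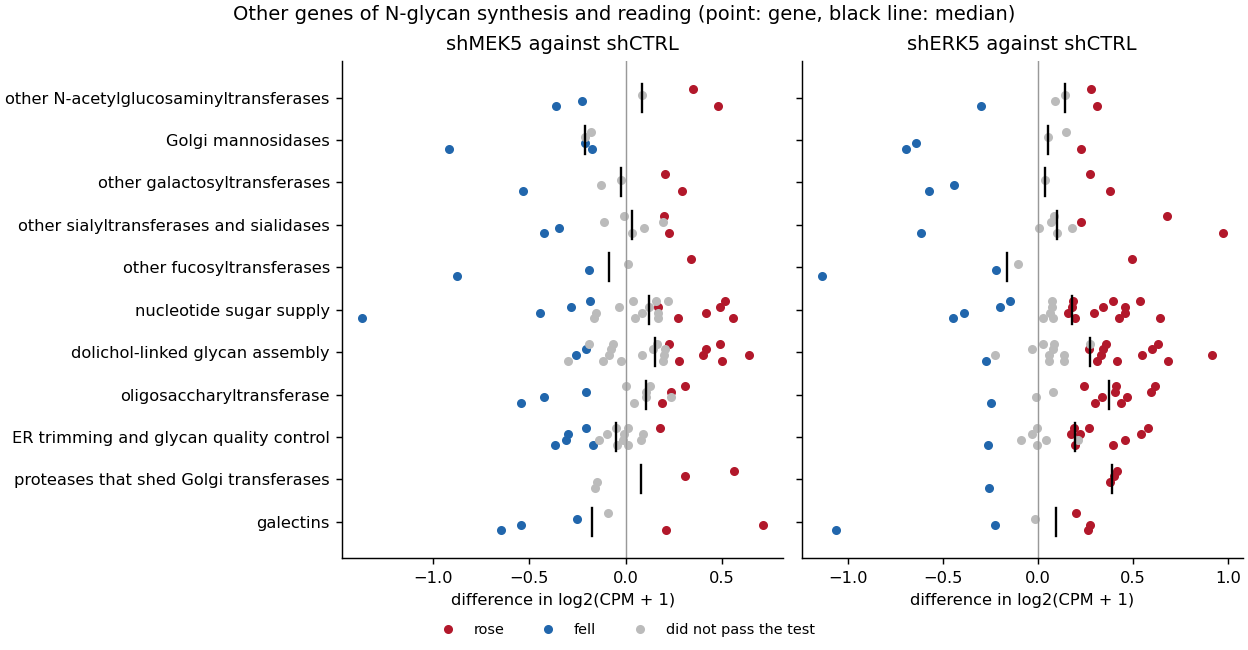
Difference in log2(CPM + 1) from shCTRL (horizontal axis) of each tested gene of the 11 pathway lists, in shMEK5 (left) and shERK5 (right). Points are coloured by the limma call and black lines are list medians; the oligosaccharyltransferase median is 0.10 in shMEK5 and 0.37 in shERK5.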

How the data were processed

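Total RNA of 8 libraries of 4T1 cells was sequenced after ribosomal RNA depletion with a strand-specific kit, per the labels' protocols. The submitters' processing notes name STAR and mm10 (GRCm38); which annotation, counting program and strand setting were used is not stated there. Each deposited table holds CPM, scaled by the authors to 1000000 per library. Within 0.01 read, 100% of values above 0 were whole multiples of 1 read, worth 0.0186 to 0.0242 CPM, so reads could be recovered. RefSeq (GRCm38.p6) gave 24374 symbols by Entrez number and GENCODE 7; 73 genes stayed unnamed.

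The 11623 genes reaching 1 CPM in 2 or more libraries were tested and 12831 were left out. The test was limma 3.58.1 with trend and robust moderation on log2(CPM + 1), a mean per group over all 8 libraries and Benjamini-Hochberg adjustment. In edgeR 4.0.16 on recovered reads, a count test, 5627, 7350 and 4452 genes were called in shMEK5 and shERK5 against shCTRL and between the knockdowns, against 5663, 7360 and 4581 by limma. Tested on simulated data of 11623 genes, limma recovered 38 of 50 genes changed 1.5-fold for shMEK5 against shCTRL, 41 of 50 for shERK5 against shCTRL and 42 of 50 for shERK5 against shMEK5. Of 50 genes changed 1.25-fold, about the size of several member differences, it recovered 14, 21 and 11 in these comparisons. Far fewer genes were changed in the simulation than were called in the data. The Benjamini-Hochberg adjustment was therefore stricter there, and these recovery rates cannot be carried over to the members. No library was a copy of another: within groups, chi-square per degree of freedom lay between 7.71 and 39.1, above sampling noise.

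Members and lists were chosen with earlier results of these data known. Named were all members, some of their nearest tested neighbours and the hairpin targets. Further genes named were up to 3 called genes per list with the smallest adjusted p and the 5 genes most correlated with Mgat3. Some other listed genes are given where they bear on how a list's count is read. Alternatives were RLE and TMM factors, other pseudocounts and filters, non-robust moderation, fits of 2 groups, edgeR, DESeq2 1.42.0, a replicate block and leaving out each library.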

Additional observations from a re-analysis of the deposited data

How the results depend on the processing

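Of 513 re-computed member differences (9 genes, 3 comparisons, 19 alternatives), 0 changed the sign of a called value and 3 changed a call. These were Fut8 in shMEK5 without shMEK5 replicate 2, and Mgat1 in shERK5 with RLE or TMM factors. Mgat3, described without a test, is among the 513 but could not count as a changed call. Of its values 12 moved by at least 1 SE, and its difference between the knockdowns ran from -0.30 to 0.10. The number of members called, Mgat3 aside, lay between 3 and 4 in shMEK5, between 4 and 5 in shERK5 and at 3 between the knockdowns. Among the lists, 5 other GlcNAc transferases were called in shERK5 without a filter, when genes with low values are tested too. With a mean of at least 5 CPM, 3 genes of the galectin list were called in either knockdown, because fewer were tested. In shMEK5 5 mannosidases were called with only the 2 groups in the fit; the cause was not tested. Leaving out each library moved the called genes to between 2 and 4 for other GlcNAc transferases, 1 and 5 for mannosidases, 2 and 4 for sialyltransferases, 2 and 7 for endoplasmic reticulum trimming and 2 and 4 for shedding proteases in shMEK5. It moved them to between 10 and 15 for sugar supply in shERK5, and between the knockdowns to between 5 and 10 for oligosaccharyltransferase and 6 and 11 for trimming. The mean log2 ratio of the CPM of Mgat3 to that of Mgat5 in shERK5, not divided by length, was -2.85, and it was -2.55 with a pseudocount of 0.5, which weighs on Mgat3 at under 3 CPM.

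The deviations of same-numbered libraries from their group means correlated between -0.19 and 0.52, not every library went best with its own number, and the numbers are not taken as pairs. With the replicate number as a block the members called stayed at 4, 4 and 3, and 5 mannosidases were called in shMEK5. With 77 to 114 reads of Mgat3 per knockdown library, its values there carry more counting error than those of the other members.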

Other observations

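Proteases from families with members that cut Golgi glycosyltransferases from their membrane anchor were listed beside the enzymes. So were galectins, which bind the finished antennae. Of the 4 tested proteases, shMEK5 had 2 higher and 0 lower, next to 23.1% and 25.6% of all tested genes. In shERK5 3 were higher and 1 lower, next to 32.0% and 31.3%. The 1 lower in shERK5 was Sppl3 (-0.26, SE 0.07, limma adjusted p = 0.00545), whose difference in shMEK5 was -0.16 (SE 0.07, adjusted p = 0.0948). The count of 2 in shMEK5 was 4 without shMEK5 replicate 1. Bace1, a protease known to cleave ST6GAL1, rose in shERK5 by 0.38 (SE 0.06, limma adjusted p = 0.000174) and had a log2 difference of -0.15 in shMEK5 (SE 0.06, adjusted p = 0.0694), which passed the test without shMEK5 replicate 1 (-0.23, adjusted p = 0.032). The knockdowns differed by 0.53 (SE 0.06). The intramembrane protease genes Sppl2a and Sppl2b rose in shMEK5 (0.31, SE 0.05, and 0.56, SE 0.08) and in shERK5 (0.42, SE 0.05, and 0.40, SE 0.07).

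The galectin list also holds Lgals3bp, which is not itself a galectin and is among the 3 lower in shMEK5. Of the 6 tested genes of this list, shMEK5 had 2 higher and 3 lower, next to 23.1% and 25.6% of all tested genes. In shERK5 3 were higher and 2 lower, next to 32.0% and 31.3%. Among the 3 higher in shERK5, Lgals9 (0.27, SE 0.11, limma adjusted p = 0.0462) missed the threshold under 12 of 18 alternatives, with adjusted p between 0.017 and 0.175 over the 18. It was 0.0539 with edgeR, 0.0815 with DESeq2 and 0.0617 with the replicate block, and the call was also lost without any 1 of shCTRL replicates 2 (0.0818) and 3 (0.175), shMEK5 replicates 1 (0.0592) and 2 (0.0589), and shERK5 replicates 2 (0.143) and 3 (0.108). The most abundant of the 6 were Lgals1 and Lgals3, with means of 5911 and 807 CPM in shCTRL. Lgals1 rose in shMEK5 (0.21, SE 0.07, limma adjusted p = 0.0233) and in shERK5 (0.26, SE 0.06, adjusted p = 0.00266). Lgals3 fell in shMEK5 (-0.25, SE 0.06, adjusted p = 0.00378) and rose in shERK5 (0.20, SE 0.05, adjusted p = 0.00499). Lgals7 fell in both: its mean ± SD was 2.41 ± 0.229 CPM over the 3 controls, 1.18 ± 0.235 CPM over the 2 shMEK5 libraries and 0.630 ± 0.059 CPM over the 3 shERK5 libraries. Its shERK5 mean thus lay under the 1 CPM of the filter. The size of its log2 difference in shERK5 depended on the setting, from -1.03 to -1.93. Lgals3bp, a galectin-binding glycoprotein gene, fell in shMEK5 (-0.54, SE 0.09) and differed between the knockdowns by 0.53 (SE 0.09, limma adjusted p = 0.000864). Lgals9 rose in shMEK5 (0.71, SE 0.12, adjusted p = 0.000783), with a mean ± SD of 1.11 ± 0.267 CPM over the controls and 2.43 ± 0.0465 CPM over the 2 shMEK5 libraries.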
